A study of Mus musculus with 8 samples.

Results

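Retinoic acid (RA) acts on embryonic stem cells (ESCs) as a differentiation signal, and the arrays described here compare the ESCs that expressed *Zscan4* in RA with those that did not. The rule was to set the Zscan4+ array against the Zscan4- array of the RA culture, which gave 2 arrays of the 8 in the series. The cells were a reporter line of 129/Sv origin in which the promoter of *Zscan4c* drives the green fluorescent protein Emerald. They were sorted on culture day 5. RA-Zscan4+ and RA-Zscan4- are the Emerald-positive and Emerald-negative cells from medium with 1.5 µM RA, on 1 array each. RM-Zscan4+ and RM-Zscan4- are the same sort from regular medium (RM), on 3 arrays each. All groups carried the transgene, which comes from 1 line, and a gate on a *Zscan4c* promoter reporter follows that promoter, not the protein. On every array the sorted sample was labeled with Cy3 and a common reference, pooled from mouse cell lines, with Cy5. The dyes were never swapped.

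*Zscan4* encodes a zinc finger and SCAN domain protein of the cleavage-stage mouse embryo, where it belongs to the genes first transcribed from the embryonic genome. In ESC cultures a small and changing share of the cells turns it on for a short time, together with other genes of the cleavage stage, and this state is linked to telomere maintenance. RA enters the nucleus, binds the retinoic acid receptors on DNA and changes the transcription of their target genes.

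The deposited files name the probes by an ID and a sequence of 60 bases, without a gene. The only symbols at hand were those the study lists for 128 probes, and it chose these probes on these same 2 RA arrays for being at least 3-fold higher in RA-Zscan4+. A fold of these probes in the RA pair is therefore a description of a choice already made. Of the 128, 84 were matched to a gene of the RefSeq table for GRCm38.p6, 68 of them protein coding, 10 pseudogenes and 6 long noncoding RNAs, and 76 carried only a provisional name. Some symbols may be misspelled in the copy at hand. The probe sequences of the genes that the results turn on are shown first, because the value of a gene here is the value of this single probe. *Zscan4* is the gene of the sort, *Tcstv3* and *Tcstv1* are cleavage-stage genes of chromosome 13, and *Tmem92* and *Arg2* had the largest folds among the named probes by the ratio, though not by Cy3 alone.
Zscan4 probe: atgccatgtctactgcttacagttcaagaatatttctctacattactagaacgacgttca
Tcstv3 probe: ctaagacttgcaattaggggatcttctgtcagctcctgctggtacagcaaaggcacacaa
Tcstv1 probe: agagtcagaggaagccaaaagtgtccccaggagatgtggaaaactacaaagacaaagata
Tmem92 probe: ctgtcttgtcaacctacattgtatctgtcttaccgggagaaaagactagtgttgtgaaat
Arg2 probe: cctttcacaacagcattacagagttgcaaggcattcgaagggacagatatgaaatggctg

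Members of gene families were measured by probes that resemble each other, and 13 of the 128 named probes shared at least 40 aligned bases at 85% identity or more with another probe of the array. Such probes may read each other's transcripts, so their values are not independent. The probes of *Gm12794* and LOC381535, which RefSeq names *Pramel19* and *Pramel18*, had 51 identical bases in a stretch of 58. Those of *Gm4340* and EG624262 had 38 identical bases in a stretch of 42. Closer matches, not printed, joined *Gm4340* to EG667568 (45 identical bases of 48) and EG624262 to LOC669397 (56 of 60). The *Gm12794* and LOC381535 pair and the *Gm4340* and EG624262 pair are printed, with the bases that differ inside the shared stretch in capitals.
Gm12794 probe: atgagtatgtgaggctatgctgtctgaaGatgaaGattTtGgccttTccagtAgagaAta
LOC381535 probe: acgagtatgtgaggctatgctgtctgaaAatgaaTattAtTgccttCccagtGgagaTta
Gm4340 probe: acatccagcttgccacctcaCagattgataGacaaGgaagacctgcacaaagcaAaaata
EG624262 probe: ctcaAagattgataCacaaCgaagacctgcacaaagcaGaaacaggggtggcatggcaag

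Each array held 42006 different probes. On the RA-Zscan4+ and RA-Zscan4- arrays the median processed Cy3 signal was 832 and 815 intensity units, and the 314 negative control spots had a 95th percentile of 99.7 and 89.6. That percentile was exceeded by 96.1% to 99.04% of an array's probes. The software's own mark for a signal well above background was set on all negative controls as well, so it was not used. Per the file headers, the images of RM replicates 1 and 3 were extracted in 1 session, those of replicate 2 in another and those of both RA arrays in a separate one. RA and session cannot be told apart, while each Zscan4+ array shared its session with its Zscan4- partner. With 1 array per group the RA pair has no replicate check and no p-value. The defining markers of ESCs and of fibroblasts were not among the 128 symbols and were not looked up.

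The RA pair differed at few probes and almost all of these were higher in RA-Zscan4+. Of 41958 probes with a value on both arrays, 204 (0.486%) were at least 3-fold higher by the ratio to the reference in RA-Zscan4+ and 13 (0.0310%) at least 3-fold lower. Over all probes the median log2 fold was -0.02, and 94.5% of them lay within 1.5-fold. At least 10-fold higher were 61 probes, 39 of them named, and 1 probe was at least 10-fold lower. Among the 128 named probes, 121 had a value, 120 were at least 3-fold higher and the median fold was 6.14. The remaining 7 had a spot with an outlier flag on the RA-Zscan4+ array. In these sorted pools, a larger share of cells with a transcript and more transcript per cell cannot be told apart.

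**Figure D1:**
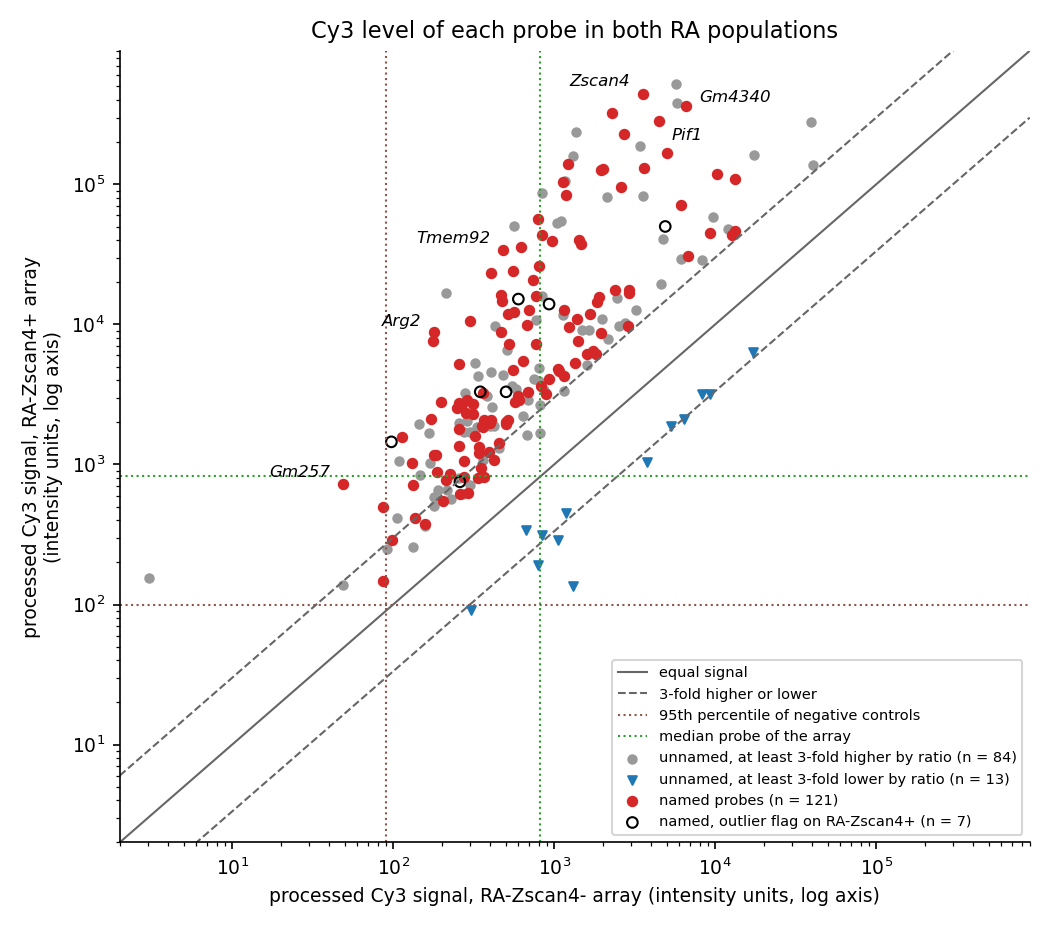
Processed Cy3 signal of single probes on the RA-Zscan4- array (x) and the RA-Zscan4+ array (y), both in intensity units on log axes, with no replicate. The 121 named probes with a value (red) and the 84 unnamed probes at least 3-fold higher (grey) lie above the diagonal, the 13 probes at least 3-fold lower (blue) lie below it, and dotted lines mark the median probe and the 95th percentile of the negative controls of each array.

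In RA-Zscan4- most of the named probes read below the median probe of the array. Their Cy3 signal there ran from 48.8 to 13317, with a median of 557. Of the 128 probes, 3 did not exceed the 95th percentile of the negative controls, 77 were brighter than that but under the median probe of the array, and 48 lay above the median probe. Over all probes of that array 99.01% exceeded the percentile, so exceeding it says little about a named probe. In RA-Zscan4+ none lay in the negative control range, 15 lay below the median probe and 113 above it, with a range from 148 to 440440 and a median of 5273. On that array 98.27% of all probes exceeded the percentile. No named probe was saturated. Signals of different probes also differ by hybridization, so a gene is set only against itself and against the controls and median of its array. Thus 65 of the 128 crossed the median probe of their array between the populations, 4 of them with an outlier flag on RA-Zscan4+, and 48 were above it in both. The probes were chosen for a rise between these arrays, which in part fixes the 65. The same counts over all probes are not given. The 3 probes in the negative control range in RA-Zscan4- were Gm257, LOC193079 and B020006M18Rik. Against that level their Cy3 signals were at least 8.16-fold, 5.56-fold and 1.65-fold higher in RA-Zscan4+, at 731, 498 and 148.

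The 8 probes of the Zscan4 signature were between 7.99-fold and 28.1-fold higher in RA-Zscan4+ by the ratio. The list holds *Zscan4*, the genes the study uses with it as markers of the state and *Tcstv3*, which was added here, so it is not independent of the sort. The *Zscan4* probe read 3543 in RA-Zscan4- and 440440 in RA-Zscan4+, which was 19.1-fold by the ratio and 124-fold by Cy3 alone. RA-Zscan4- cells thus had a *Zscan4* signal above that of the median probe. In the same order, RA-Zscan4- first, *Tcstv3* read 1223 and 140170, 21.0-fold by ratio, and *Tcstv1* 794 and 56159, 24.1-fold. *AF067063*, which lies next to *Tcstv1* on chromosome 13, was at 557 in RA-Zscan4- and 24171 in RA-Zscan4+, 17.7-fold. *Eif1a*, of the family of translation initiation factor 1A, was at 1948 and 126980, 12.1-fold, and *Gm4340*, which RefSeq lists as protein coding, at 6626 and 362670, 7.99-fold. All 8 probes of the list were above the median probe in RA-Zscan4+, and 4 of them, those of *Tcstv1*, *AF067063*, *BC061212* and *Gm12794*, were below it in RA-Zscan4-. The median of the list was 4.32 on the log2 scale, against -0.02 over all probes.

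The same 8 genes were all called higher in RM-Zscan4+. *Zscan4* is the gene of the sort in RM too. The study takes the others, except *Tcstv3*, from earlier work as markers of the Zscan4 state. The list was also chosen with earlier results of these data known. The 8 calls are therefore no independent test of the list on the RM arrays. There limma called 146 of 42006 probes (0.348%) higher in RM-Zscan4+ at an adjusted p under 0.15 and 21 (0.0500%) lower, and 81 (0.193%) were called and at least 3-fold higher. The folds of *Zscan4* in the 3 RM pairs were 31.4, 41.5 and 16.6, with a log2 fold change of 4.80 (± 0.27 SE, limma adjusted p = 0.00378). Those of *Gm4340* were 9.10, 13.2 and 5.39 (3.11 ± 0.23 SE, limma adjusted p = 0.00934). The RA fold of each of the 8 lay within the range of its 3 RM folds. Without any single RM array, 7 of the 8 were still called. The exception was *Gm12794*, whose call was lost without replicate 1 of RM-Zscan4+ and without replicate 1 or 2 of RM-Zscan4-. The labels do not say whether the replicates were separate cultures, so these p-values measure the spread between arrays, which may be technical.

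**Figure D2:**
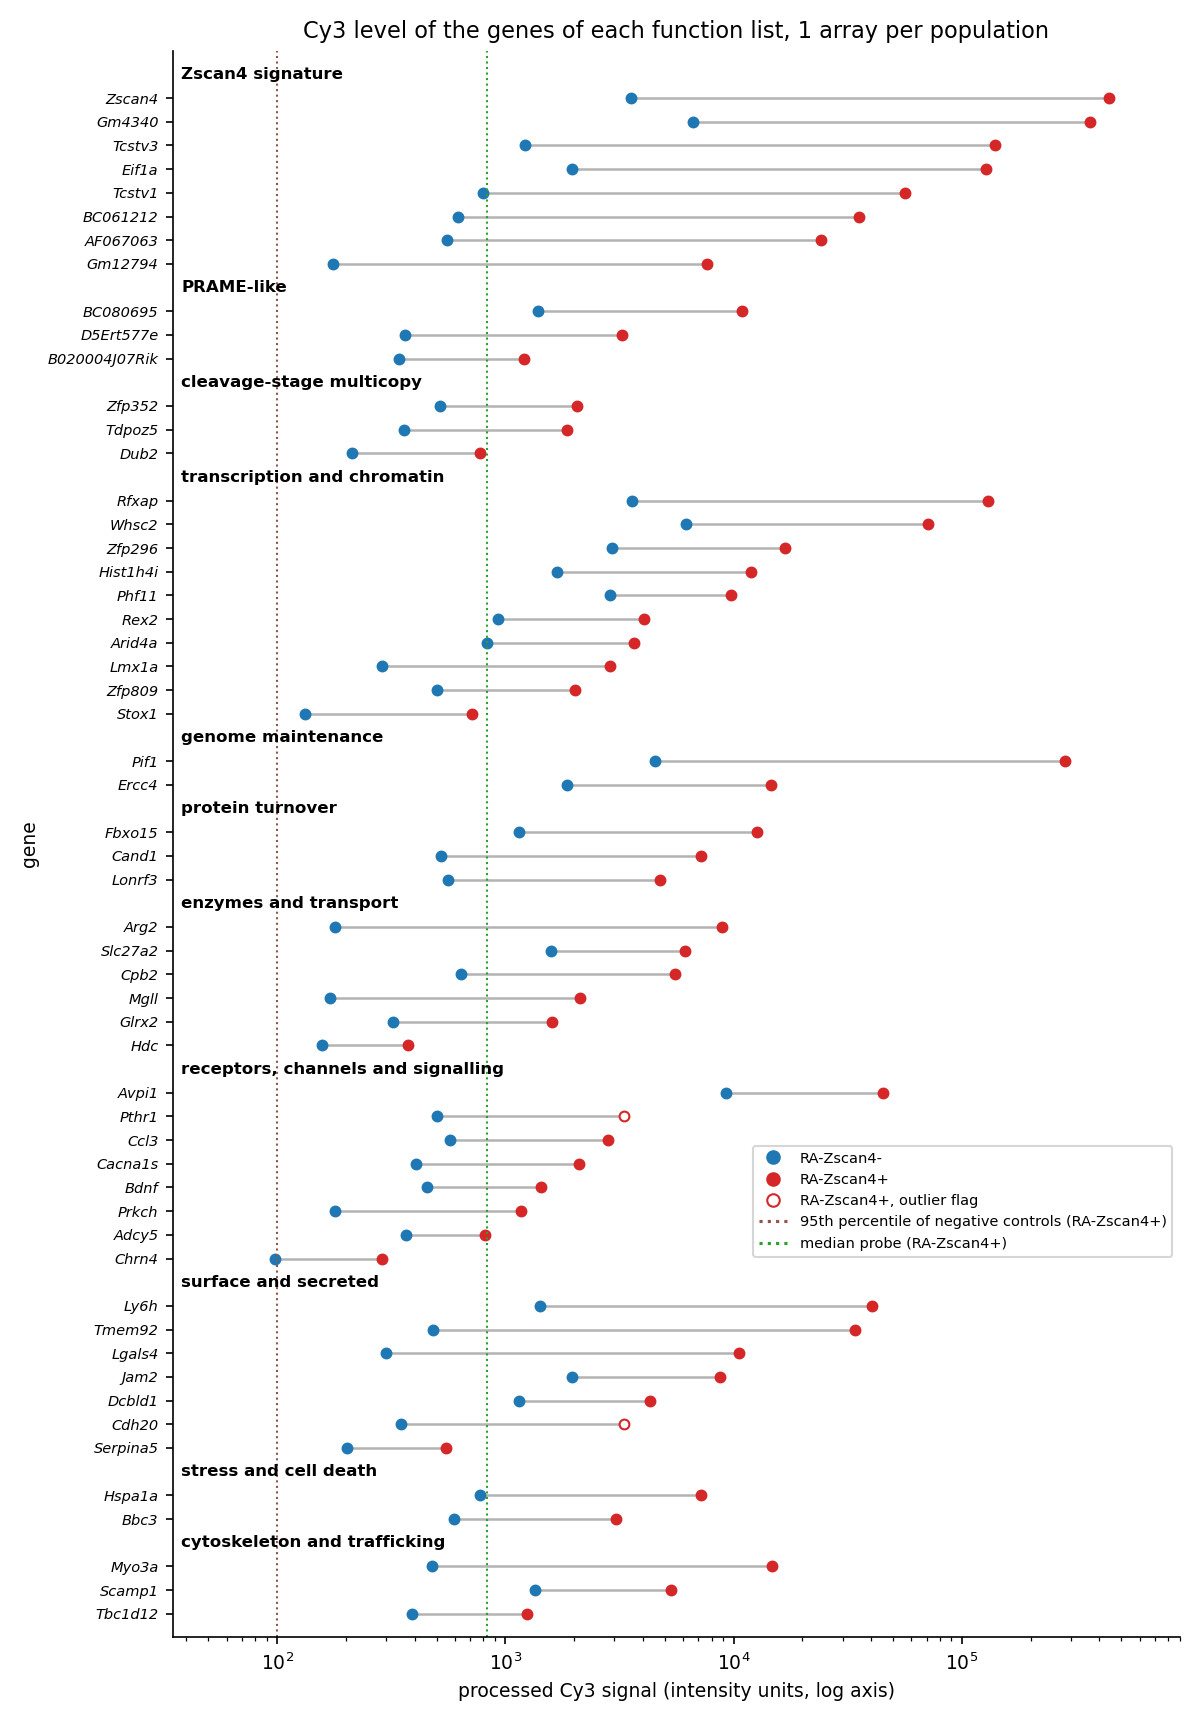
Processed Cy3 signal (x, intensity units, log axis) of 55 genes in function lists (y), in RA-Zscan4- (blue) and RA-Zscan4+ (red, open where the spot has an outlier flag), 1 array each without error bars. The red point lies to the right in every gene, and the lengths of the lines differ, with *Zscan4* running from 3543 to 440440 and *Hdc* from 157 to 373.

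PRAME-like genes encode leucine-rich repeat proteins of the germ line and early embryo, in a family named after a tumor antigen that binds the retinoic acid receptor. The 5 probes of this list were between 5.49-fold and 28.1-fold higher in RA-Zscan4+ by ratio. *Gm12794* read 176, close to the negative controls above local background, and 7616. *BC061212* read 620 and 35437, 22.9-fold. *BC080695* read 1383 and 10861 and the gene listed as D5Ert577e 362 and 3257, 8.61-fold and 7.80-fold. B020004J07Rik, which RefSeq names *Pramel17*, was at 341 and 1212. On the RM arrays, *Gm12794* and *BC061212* were called higher, with log2 fold changes of 4.12 (± 0.42 SE, limma adjusted p = 0.0369) and 4.10 (± 0.23 SE, adjusted p = 0.00378). The other 3 had adjusted p-values from limma of 0.265, 0.270 and 0.636. With the replicate number as a block, under which 1.85% of all probes were called higher, all 5 were called, at 0.144, 0.135 and 0.0813 for these 3. For *Gm12794* and *BC061212* the adjusted p-values with the block were larger than without it, at 0.0802 and 0.0426.

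The genes that RefSeq names *Pramel17*, *Pramel18* and *Pramel19* lie close together on chromosome 4, with 2 protein coding genes between the first pair and 0 between the second. Their RA folds were 5.49, 12.3 and 28.1. The probes of the last pair are the ones printed with 7 differing bases, and no such stretch joined them to the probe of *Pramel17*. LOC381535 (*Pramel18*) was at 701 in RA-Zscan4- and 12633 in RA-Zscan4+. Its RM folds were 5.40, 18.2 and 5.48 (adjusted p = 0.133 from limma). That call was kept only without RM-Zscan4+ replicate 2 among the 6 fits that left out an RM array. The other neighbors among the named genes were LOC625360 (RefSeq BC147527) and *Tcstv3* on chromosome 13, at 6.94-fold and 21.0-fold, and *Slc27a2* and *Hdc* on chromosome 2.

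A list of 3 further cleavage-stage genes was between 3.51-fold and 5.06-fold higher. *Zfp352*, a zinc finger gene, read 517 and 2065 (5.06-fold by ratio), *Tdpoz5*, a TRAF and POZ domain gene, 361 and 1865 (3.51-fold) and *Dub2*, a deubiquitinase, 213 and 775 (3.92-fold). On the RM arrays limma called *Zfp352* (1.76 ± 0.24 SE, adjusted p = 0.0931) and *Tdpoz5* (0.84 ± 0.07 SE, adjusted p = 0.0108) higher on the log2 scale. *Dub2* had RM folds of 1.53, 2.70 and 1.37 and an adjusted p of 0.341. The call of *Zfp352* was kept only without RM-Zscan4+ replicate 2. LOC229571, which RefSeq names *Tdpoz8*, was not on the list and is given after its values were seen. It was 3.66-fold higher in RA-Zscan4+ and was not called in RM (limma adjusted p = 0.467).

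Transcription and chromatin genes formed the longest list, with 11 probes from 3.25-fold to 13.8-fold higher in RA-Zscan4+ (median 4.98-fold). *Rfxap*, a subunit of the RFX complex that acts on MHC class II promoters, read 3598 and 129980, 13.8-fold by ratio. *Whsc2*, now *Nelfa*, encodes a subunit of the negative elongation factor and read 6154 and 71231, 6.58-fold. The LIM homeobox gene *Lmx1a*, known from dopamine neuron development, was at 288 and 2873, 9.75-fold. The levels of the zinc finger genes were 503 and 2022 for *Zfp809*, a silencer of retroviruses, 2919 and 16796 for *Zfp296* and 929 and 4065 for *Rex2*. The histone H4 gene *Hist1h4i* was at 1676 and 11863. *Arid4a*, which binds the retinoblastoma protein, read 832 and 3661 and the PHD finger gene *Phf11* 2865 and 9736. Below the median probe in both states was *Stox1*, a winged helix gene, at 132 and 717.

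On the RM arrays 7 of these 11 were called, *Rfxap*, *Hist1h4i*, *Lmx1a*, *Zfp809*, *Arid4a* and *Rex2* among them, beside 0.348% of all probes, and 10 with the replicate number as a block, beside 1.85%. *Rfxap* had nearly equal folds of 7.75, 8.10 and 7.18 in the 3 pairs (adjusted p = 0.00126 from limma) and was the only gene of the list called without any single RM array. *Hist1h4i* had RM folds of 7.60, 8.73 and 3.92 (adjusted p = 0.0185 from limma) beside 5.38 in RA, and its call was lost without RM-Zscan4+ replicate 1. *Whsc2* was at 2.64, 3.04 and 2.12, with an adjusted p of 0.279 from limma and 0.0540 with the block. *Zfp296* was not called in either fit (0.517 and 0.165), with folds of 2.23, 2.46 and 1.32.

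Genome maintenance was represented by a helicase and a nuclease. *Pif1*, a DNA helicase that acts at telomeres and at replication forks, read 4505 and 283820, 13.6-fold by ratio and 63.0-fold by Cy3. *Ercc4*, the nuclease XPF of nucleotide excision repair, read 1858 and 14546, 6.01-fold. Both were above the median probe in both populations. On the RM arrays *Pif1* changed by 3.62 on the log2 scale (± 0.13 SE, limma adjusted p = 0.00153) and *Ercc4* by 1.55 (± 0.22 SE, adjusted p = 0.102). The call of *Ercc4* was kept only without RM-Zscan4- replicate 3.

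Of the protein turnover genes, *Fbxo15*, an F-box gene of pluripotent cells, read 1150 and 12710. Its fold was 5.08 by ratio and 11.1 by Cy3. *Cand1*, which exchanges the substrate receptors of cullin ligases, read 524 and 7192 (10.0-fold) and the RING finger gene *Lonrf3* 558 and 4750 (8.49-fold). Among these, limma called *Lonrf3* in RM, at a log2 fold change of 2.01 (± 0.16 SE, limma adjusted p = 0.0120). *Cand1* and *Fbxo15* had adjusted p-values of 0.185 and 0.566 from limma, and 0.0550 and 0.110 with the block.

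Genes of enzymes and transport were between 3.04-fold and 34.7-fold higher in RA-Zscan4+ by ratio, over 6 probes. *Arg2*, the mitochondrial arginase, read 178 and 8854, 34.7-fold by ratio, with an RA-Zscan4- signal close to the negative controls above local background. *Mgll*, which cleaves monoacylglycerols, read 171 and 2126, 13.1-fold. The carboxypeptidase *Cpb2* read 637 and 5524 (8.95-fold) and the mitochondrial glutaredoxin *Glrx2* 320 and 1599 (4.81-fold). *Hdc*, which makes histamine, stayed below the median probe in both states, at 157 and 373. On the RM arrays limma called *Arg2* (4.35 ± 0.29 SE, limma adjusted p = 0.00603), *Mgll* (2.29 ± 0.33 SE, adjusted p = 0.118) and *Glrx2* (1.51 ± 0.19 SE, adjusted p = 0.0825) higher on the log2 scale. Without single RM arrays the calls of *Mgll* and *Glrx2* were lost in 4 and 5 of 6 fits. *Cpb2* was called with the block alone (limma adjusted p = 0.123 with the block and 0.178 without it).

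*Slc27a2*, a fatty acid transporter and acyl-CoA synthetase, had the lowest RM fold of all named probes. In RA it read 1589 and 6125, 4.68-fold by ratio. In the RM pairs its folds were 0.503, 1.07 and 0.777, a log2 fold change of -0.42 (± 0.20 SE, limma adjusted p = 0.833).

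Receptor, channel and signaling genes were between 3.04-fold and 6.14-fold higher in RA-Zscan4+, over the 7 of 8 with a value. *Cacna1s*, a calcium channel subunit, read 408 and 2094, *Prkch*, a protein kinase C, 179 and 1175 and the chemokine *Ccl3* 570 and 2807. *Avpi1*, a gene induced by vasopressin, read 9277 and 45262, 4.36-fold by ratio. The neurotrophin gene *Bdnf* read 455 and 1429, 3.04-fold, close to the threshold. The adenylate cyclase *Adcy5* and the gene listed as Chrn4 stayed below the median probe, at 365 and 810 and at 97.9 and 287. In RM limma called *Prkch*, *Ccl3* and *Avpi1*, with adjusted p-values of 0.102, 0.0319 and 0.00378 and mean folds of 2.02, 2.34 and 2.82. *Avpi1* was called without any single RM array, whereas *Prkch* was called only without RM-Zscan4+ replicate 3 and *Ccl3* was lost without RM-Zscan4- replicate 1 or 2. With the block *Cacna1s* and *Bdnf* were called as well (0.111 and 0.138).

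Genes of surface and secreted proteins were between 3.12-fold and 36.3-fold higher in RA-Zscan4+, over the 6 of 7 with a value. *Tmem92*, a transmembrane protein gene, read 481 and 34163. Its fold of 36.3 was the largest of the named probes by the ratio, and by Cy3 alone it was 71.0-fold, behind 5 others. *Lgals4*, a galectin, read 300 and 10601 (15.6-fold) and *Ly6h*, an anchored surface protein gene, 1418 and 40401 (15.6-fold). The junctional adhesion molecule *Jam2* read 1956 and 8747, *Dcbld1* 1145 and 4278 and the protease inhibitor *Serpina5* 203 and 547. In RM *Tmem92*, *Lgals4* and *Ly6h* were called (adjusted p = 0.0477, 0.00883 and 0.00378 from limma). With the block these were 0.0822, 0.0484 and 0.0426. *Tmem92* had RM folds of 34.5, 48.1 and 7.89, and its call was lost without the same 3 arrays as that of *Gm12794*. *Serpina5* had RM folds of 1.14, 0.772 and 0.962 beside 3.55 in RA. *Jam2* was called with the block alone (limma adjusted p = 0.135 with the block and 0.199 without it).

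Among stress and cell death genes, the heat shock gene *Hspa1a* read 776 and 7205 (8.73-fold by ratio) and *Bbc3*, which encodes the proapoptotic protein PUMA, 595 and 3064 (4.85-fold). In RM *Bbc3* was called (0.91 ± 0.12 SE, limma adjusted p = 0.0858) and *Hspa1a* had folds of 2.92, 5.78 and 1.54 (adjusted p = 0.329). The call of *Bbc3* was kept only without RM-Zscan4+ replicate 3. Among cytoskeleton and trafficking genes, the myosin *Myo3a* read 476 and 14695, 18.04-fold, and was called in RM at 2.74 (± 0.24 SE, limma adjusted p = 0.0167). *Scamp1* and *Tbc1d12*, which act in membrane traffic, were 3.41-fold and 4.07-fold higher in RA-Zscan4+ and had adjusted p-values of 0.555 and 0.575 in RM. With the block these were 0.0822 and 0.189, so that *Scamp1* was called.

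Of the 76 probes with provisional names, the 71 with a value had ratios from 2.55-fold to 29.0-fold and a median of 7.02-fold, beside 5.07-fold for the 50 established names with a value. Past *Gm12794* and *BC061212*, the largest folds by the ratio were those of LOC432715, a RefSeq pseudogene now named *Gm5442*, at 29.0-fold (844 and 43327), LOC385201 at 21.2-fold (974 and 39557) and LOC434660 at 20.9-fold (513 and 11824). By Cy3 alone the order differed, with EG226955 at 92.3-fold and LOC665446 at 83.7-fold above LOC432715 at 51.3-fold. In RM 46 of the 76 were called higher, and 29 of the 52 established names, beside 0.348% of all probes. At the threshold, B020006M18Rik (RefSeq *Ubtfl1*) carried a symbol but was at 2.55-fold by a ratio that rests on a Cy3 signal in the negative control range, and BC038328, *Hdc* and *Bdnf* were the first above 3-fold, at 3.02-fold, 3.04-fold and 3.04-fold. In the authors' series matrix 128 of the 128 were at least 3-fold higher.

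The size of the contrast depended on the channel, since the ratio divides by a reference signal that itself differed between the arrays. By Cy3 alone the 118 named probes with a value and with a signal above the negative controls in RA-Zscan4- were between 2.14-fold and 142-fold higher in RA-Zscan4+. Of all 121 with a value, 11 were under 3-fold. The Cy3 fold exceeded the ratio fold at 80 of them, and by over 2 times at 25. Cy5, which carried the same reference on both arrays, was over 1.5-fold higher on the RA-Zscan4+ array at 35 of the 121, against 2.19% of all probes. It was so at 22 of the 27 named probes with a Cy3 signal of 30000 or more on that array and at 13 of the other 94. At the *Zscan4* probe Cy5 read 6286 on the RA-Zscan4+ array and 966 on the RA-Zscan4- array, and at the *Arg2* probe it read 171 and 120. The largest Cy3 fold was that of Drr2, 142-fold (2288 and 325720) where the ratio gave 7.02-fold. *Zscan4* and *Tcstv3* followed, at 124-fold and 115-fold. Drr2, EG226955 and LOC665446 were named after their values were seen. The part of the reference signal in these folds was not tested. Over the probes without such a Cy5 difference the median log2 fold was 2.31, beside 2.62 over all 121.

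**Figure D3:**
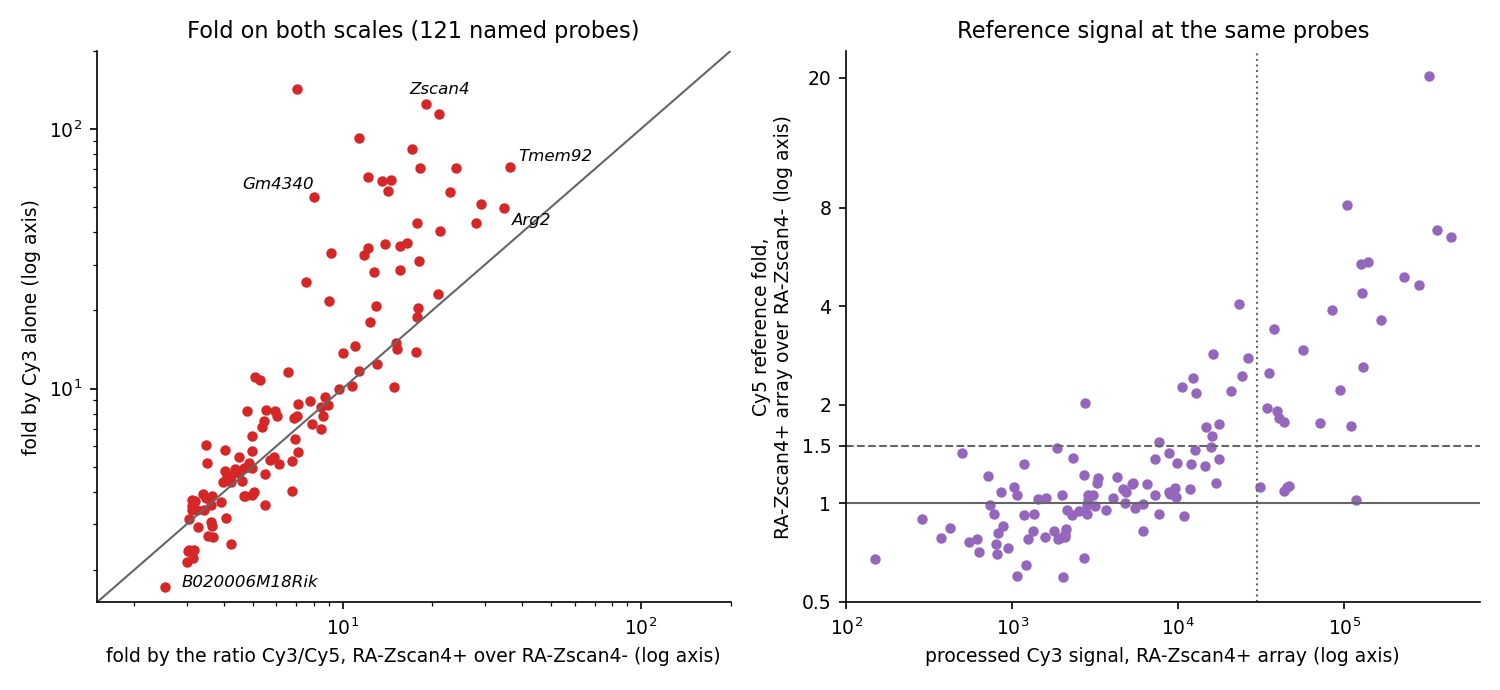
Left, the fold of RA-Zscan4+ over RA-Zscan4- for the 121 named probes with a value, by the ratio to the reference (x) and by Cy3 alone (y), on log axes, with the line of equal folds. Right, the Cy5 reference fold between the same arrays (y, log axis) against the Cy3 signal on the RA-Zscan4+ array (x, intensity units, log axis), where 22 of the 27 probes right of the dotted line at 30000 lie above the dashed line at 1.5.

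The named probes were mostly higher in RM-Zscan4+ too. Limma called 75 of the 128 higher, beside 0.348% of all probes, and 54 both called and at least 3-fold higher, beside 0.193%. It called 0 lower. The 75 fell to 42 without RM-Zscan4+ replicate 1 and to 45 and 46 without replicates 1 and 2 of RM-Zscan4-. The shares of all probes called in these fits are not given. T-statistics rebuilt here from the description in the study's methods called 0. They only approximate the study's own test, and the study does report genes enriched in RM-Zscan4+. With the replicate number as a block 101 were called, beside 1.85% of all probes, and 56 of them were at least 3-fold higher, beside 0.248%. Of the 127 probes with a value in all 3 RM pairs, 111 were higher in RM-Zscan4+ in each pair, beside 15.3% of all probes, and 1, Gm854, which has an outlier flag, was lower in each, beside 19.7%. Within each pair, which also lies within 1 extraction session, the median fold of the 120 named probes with all values was 2.72, 4.13 and 2.30, and in RA it was 6.07. The RA fold exceeded all 3 RM folds at 86 of the 120, lay within their range at 33 and below it at 1, LOC545238. The probes were chosen for a high RA fold, so an RA fold above the RM folds is in part fixed by that choice. The same count over all probes is not given, so this count is no result about the named probes.

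A limma contrast of the RA change against the RM change, in which the single RA arrays were assumed to vary like the RM arrays, called 0 of 41958 probes (0%) at an adjusted p under 0.15, with 1120 at an unadjusted p under 0.05. The RA arrays have no replicate and chose the named probes, so this contrast is no test of them and their values in it are not given.

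**Figure D4:**
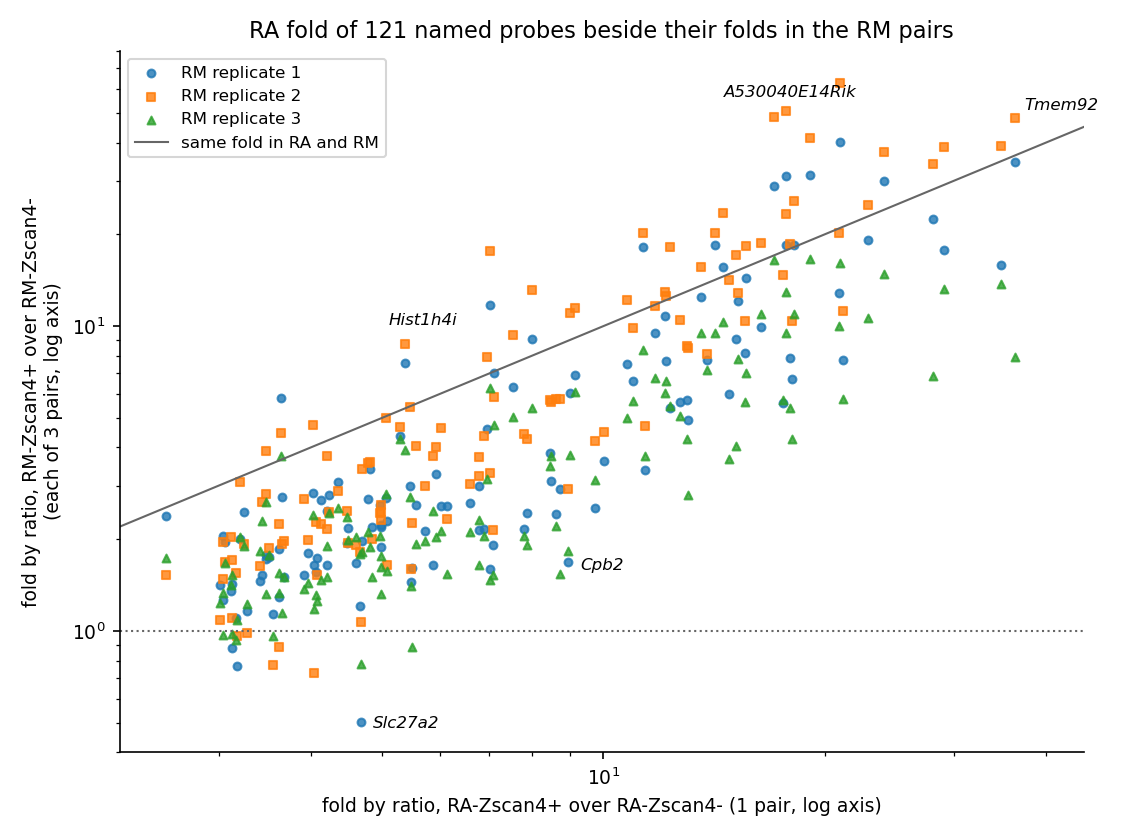
Fold by the ratio in the RA pair (x, log axis) against the fold in each of the 3 RM pairs (y, log axis) for the 121 named probes with an RA value, 1 symbol per RM replicate. Of the 362 points, 313 lie below the line of equal folds, and *Slc27a2* has the lowest, 0.503 in the pair of replicate 1. The probes were chosen for a high RA fold, which in part fixes the 313.

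The 7 named probes with an outlier flag on the RA-Zscan4+ array were not called in RM. They were Gm1070, A830029E22Rik, *Cdh20*, Gm854, D030070L09Rik, *Pthr1* and 4932442E05Rik. With the spots kept, their ratios in RA were between 3.03 and 27.5. *Cdh20*, a cadherin of the developing nervous system, was at 348 in RA-Zscan4- and 3303 in RA-Zscan4+, and *Pthr1*, the parathyroid hormone receptor gene, at 503 and 3302. Their folds between RM-Zscan4+ and RM-Zscan4- lay between 0.933 and 1.18. Limma called 0 of the 7 higher, beside 0.348% of all probes, a share at which 0 calls among 7 say little. Each RA value here is a single spot that the software marked as non-uniform or as an outlier.

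Of the 3 neuroectoderm genes with a symbol, *Lmx1a* and *Bdnf* had an RA value and *Cdh20* had the flag. In RM, *Lmx1a* had folds of 2.52, 4.21 and 3.13 (log2 fold change 1.69 ± 0.19 SE, limma adjusted p = 0.0477). The call was lost without RM-Zscan4+ replicate 1 or RM-Zscan4- replicate 2. *Bdnf* had folds of 2.04, 1.96 and 1.33 (adjusted p = 0.312 from limma).

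The 84 unnamed probes at least 3-fold higher had a median fold of 4.98 and a median Cy3 signal of 4015 in RA-Zscan4+. All 84 lay above the negative controls there, beside 98.27% of all probes. Of the 84, 74 were higher in all 3 RM pairs, beside 15.3% of all probes, and 32 were called in RM, beside 0.348%. The sequences of 4 resembled that of a named probe. Of the 13 probes at least 3-fold lower, none had a name and all were above the negative controls on at least 1 array. The lowest ratio was that of Z00072692-1, at 1318 in RA-Zscan4- and 136 in RA-Zscan4+, a log2 fold of -3.40. Next were Z00023099-1, at 789 and 193 (-1.97), and Z00005176-1, at 3774 and 1046 (-1.89).

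RefSeq promoters, windows of 300 bases from 250 before to 50 after a gene's start on GRCm38.p6, were at hand for 54 of the 84 matched genes. The string AGGTCA, which is only a part of a retinoic acid response element, was searched on either strand. It was found in 13 of these 54 genes (24.1%) and in 18.1% of all 27025 genes with a window. Its variant AGTTCA was found in 15 (27.8%), *Lmx1a*, *Ercc4* and *Pramel19* among them, and in 15.7% of all genes. A match is a string of letters in a short window and says nothing of binding. Whole response elements were not searched. The study reports, without showing the data, that promoters of the RA-Zscan4 profile genes lacked such elements. That report was not tested by these counts.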

How the data were processed

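RNA of sorted cells was amplified and hybridized in Cy3 against a Cy5-labeled reference pooled from mouse cell lines, on Agilent arrays of 60-base probes. The authors deposited scanner files of Agilent Feature Extraction (A.7.5.1 per the file headers) with each spot's intensity, as mean pixels and as a processed signal after local background subtraction and linear and LOWESS dye normalization. They also deposited a series matrix on a log10 scale, used here as an alternative. Comparison columns of the study were not used beyond its gene symbols, which it gives for 128 probes.

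The value was log2 of processed Cy3 over processed Cy5. Control spots were dropped, as were spots that Feature Extraction flagged as outliers in Cy3 or Cy5. Saturation was no reason to drop a spot, and repeated spots of a probe were averaged. Levels are processed Cy3. RA-Zscan4+ and RA-Zscan4- were compared by fold, at 3-fold, with no test. For the RM arrays, and for the RA change against the RM change, a mean per group was fitted over all 8 arrays with limma 3.58.1 in R 4.3.3, called at a Benjamini-Hochberg adjusted p under 0.15, the rate of the study's methods. The fits were tested on simulated data. Replicate numbers are those of the labels. Same-numbered RM arrays deviated together (correlations of 0.388, 0.562 and 0.592 across 41113 probes), so the numbers pair them. The adjusted p-values given are from the fit without this pairing, unless the block is named. Probe sequences were compared with BLAST+ 2.17.0. Signal over background and the number of arrays limit the precision.

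Genes were named if they had an established role, in function lists, plus the 5 largest ratios among provisional names and the 3 lowest ratios among unnamed probes above the negative controls. The members and lists were chosen with earlier results of these data known. Alternatives covered the dye channel, the series matrix, normexp (offset 50) with loess on the mean signals, outlier spots kept, a floor and a filter at the negative controls, 2-fold, a rate of 0.05, the replicate block, each RM array left out, and the methods' t-statistics. Some genes of the lists are not reported here.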

Additional observations from a re-analysis of the deposited data

How the results depend on the processing

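The count of probes at least 3-fold higher in RA-Zscan4+ was between 166 (normexp and loess) and 217 (Cy3 alone) under the other ways of reading the signals, and 497 at 2-fold. The count of those at least 3-fold lower, 13, was 20 in the series matrix, 4 after normexp and loess and 170 at 2-fold. The median log2 fold of the named probes, 2.62, was between 2.31 and 2.87, the lowest without probes whose Cy5 signal differed, an alternative chosen after seeing the data. No named gene changed direction in RA, which the choice of the probes on these same 2 arrays largely fixes. By Cy3 alone 27 of 60 genes moved by more than the spread between RM arrays, and after normexp and loess 12 of 60.

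Of the 75 named probes called higher in RM-Zscan4+ by limma (54 of them at least 3-fold), the t-statistics rebuilt from the methods called 0 and 0. Leaving out 1 RM array gave between 42 and 72 calls, and between 37 and 55 at 3-fold. The counts furthest down were 42 without RM-Zscan4+ replicate 1 and 45 and 46 without replicates 1 and 2 of RM-Zscan4-, and 41 of the 75 probes were called in every such fit. With a replicate block for the pairing, 101 were called, beside 1.85% of all probes, and 56 of them were at least 3-fold higher, beside 0.248%. The 75 were all among the 101. A rate of 0.05 left 50 and 44. Without the 6 named probes that share sequence with another named probe, chosen after seeing the data, 69 and 48 were called. Shares of all probes are not given for the fits without 1 RM array, the rate of 0.05 or this filter. A loss of calls over the whole array thus cannot be told apart from a loss at the named probes. The contrast of the RA change against the RM change is no test of the named probes, since the RA arrays chose them. Its calls among them are therefore not given. The cause of the differences between settings was not tested.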

Other observations

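An unnamed probe, Z00046703-1, had the most extreme ratio of the RA pair, but its processed Cy3 read 3.05 on the RA-Zscan4- array, under the 95th percentile of the negative controls of 89.6, so the size of its fold is not measured. It read 155 on the RA-Zscan4+ array while Cy5 read 913 and 79.2 on the RA-Zscan4- and RA-Zscan4+ arrays. In the authors' series matrix its log2 fold was -0.64, and its folds in the RM pairs were 0.793, 1.37 and 3.72. The next unnamed probes, Z00061010-1 and Z00060619-1, were 33.0-fold and 27.3-fold higher in RA-Zscan4+, with Cy3 signals of 5826 and 383770 for the first and 560 and 50066 for the second. Both were called higher on the RM arrays, at log2 fold changes of 4.36 and 4.80 (adjusted p = 0.00378 from limma for both). These probes were picked after their values were seen.

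An unnamed probe that shares 55 of 59 bases with that of *Eif1a* was 10.7-fold higher in RA-Zscan4+, beside 12.1-fold for *Eif1a*.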
